A study of Mus musculus with 12 samples.

Results

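The genes described here encode the proteins of the cytosolic ribosome, measured in the pituitary gland of pregnant and non-pregnant mice. They were chosen by symbol alone, as every symbol of the array annotation made of Rpl, Rps or Rplp, a number, at most 1 letter and any further digits, together with Rpsa. Symbols with more letters after the number, such as Rpl36al, were thereby left out. The array carried 62 such genes with 92 probes, among 19057 named genes. A probe was tested when it was detected above background (detection p under 0.05) on 4 or more of the 12 arrays. This left 78 probes for 54 of the 62 genes, against 10802 named genes tested in all. Of the 54, 32 belonged to the large subunit and 22 to the small subunit.

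RNA of the whole pituitary of wild-type c57BL6/J females was read on MouseWG-6 v2.0 bead arrays, with 1 animal per array. There were 8 Pregnant females, which had been mated and were killed at e15.5, and 4 Non-pregnant females, which were virgins. The study's methods state an age of 8 weeks at allocation and an origin from 4 litters, without the litter of each female. The whole gland holds every hormone-producing cell type together with stem cells, vessels and the posterior lobe, so a difference in RNA per cell cannot be told apart from a difference in the number of cells of a type.

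The ribosome has a small subunit, which reads the messenger RNA, and a large subunit, which joins the amino acids. Their proteins are needed in matched amounts, and most messenger RNAs for them begin with a short run of pyrimidines (C and T), the terminal oligopyrimidine tract, through which the kinase mTORC1 and the RNA-binding protein LARP1 set their translation and stability. Because of this, cells can change how much ribosomal protein they make without changing the amount of its messenger RNA, and an array measures only the messenger RNA. Many ribosomal protein genes have processed pseudogenes of nearly the same sequence, so a probe may also take up RNA of such copies, and which probes do so was not tested.

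The start regions of 7 of these genes are shown because their longest pyrimidine runs near the annotated start differ in length and place. The 7 include Rpl31, Rplp0, Rpl13a and Rpl23, which are described below, but not Rps25, which had the highest change of the small subunit. Each stretch runs from 15 bases before to 15 bases after the annotated start (RefSeq, GRCm38.p6), with the longest run of C or T in capitals. RefSeq promoter sequences were matched for 45 of the 54 tested genes.
Rpl27a (chr7:109519180-109519209, plus strand): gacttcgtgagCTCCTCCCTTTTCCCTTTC
Rpl28 (chr7:4792950-4792979, plus strand): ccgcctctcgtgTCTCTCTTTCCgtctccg
Rps6 (chr4:86857353-86857382, minus strand): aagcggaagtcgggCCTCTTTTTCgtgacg
Rpl13a (chr7:45128731-45128760, minus strand): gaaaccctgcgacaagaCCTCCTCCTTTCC
Rpl31 (chr1:39367836-39367865, plus strand): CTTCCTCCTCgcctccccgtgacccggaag
Rplp0 (chr5:115559452-115559481, plus strand): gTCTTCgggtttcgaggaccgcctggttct
Rpl23 (chr11:97782425-97782454, minus strand): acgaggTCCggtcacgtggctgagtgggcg
In Rpl27a, Rpl28 and Rps6 the run spanned the annotated start and was 19, 11 and 10 bases long within the stretch. Runs were measured inside the stretch only. Those of Rpl27a, Rpl13a and Rpl31 reach its edge and may be longer. In Rpl13a it began 3 bases into the transcript, in Rpl31 and Rplp0 it ended before the annotated start, and in Rpl23 no run within the stretch was longer than 3 bases. Whether these differences come from the annotation of the start was not tested. These 45 genes had 54 start windows, since some have several annotated starts. A run of at least 8 pyrimidines within 15 bases of the start was present in 38.9% of the 54 windows, from 20 genes, and in 12.0% of all 32851 RefSeq windows. A run of at least 5 was present in 66.7% against 47.3%. The motif CCGGAAG, which ETS-family transcription factors such as GABPA can bind, was present on either strand in 38.9% of the 300-base windows (250 bases before to 50 after the start) of the tested genes, against 8.9% of all windows. TATAAA was present in 11.1% against 13.6%. These matches describe the sequence and were not linked to the array values.

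On each array 38.0% to 41.0% of 45281 probes were detected, and the median raw signal was 151.1 to 179.6 on the pregnant arrays, above the 144.8 to 147.6 of the non-pregnant arrays. Non-pregnant replicate 4 correlated best with a pregnant array (Pregnant replicate 8, r = 0.984 over the tested probes), while each of the other 3 non-pregnant arrays correlated best with one of its own group. The defining hormone genes of the pituitary were present, with Gh and Prl at mean log2 intensities of 15.19 and 15.31 in pregnant and 15.46 and 15.47 in non-pregnant females. Of 6 red cell genes, 5 were called higher in pregnancy, and the mean log2 level of all 6 was 11.12 to 12.61 on pregnant arrays, against 9.68 to 10.09 on non-pregnant arrays. All 5 tested proliferation genes were higher in pregnancy (median log2 change 0.85) and the 2 tested stem cell genes lower (median -0.39), but none was called. The mean level of the 5 was 6.44 to 8.08 on pregnant and 5.82 to 7.51 on non-pregnant arrays. For the 2 it was 8.61 to 8.77 and 8.74 to 9.38, so the groups overlapped for each list. The part of red cell RNA, or of these other cells, in the ribosomal protein values was not tested.

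The first question was whether the ribosomal protein genes differed between pregnant and non-pregnant females. Of the 54 genes, 53 did not pass the test. A probe was called at an adjusted p under 0.05 (limma) with a change of at least 0.32 on the log2 scale, the fold threshold of the study's methods, and a gene when any of its probes was. Only Rpl31 was called, as higher in pregnancy, by 1 of its 3 probes. Among all 18626 tested probes, 1.22% were called higher and 1.10% lower, and the counts were the same without the fold threshold. The 1 call among 78 ribosomal protein probes was thus near the background share. A further 9 probes had an unadjusted p under 0.05, which makes 10 of 78, against 3159 of 18626 tested probes. The groups did not overlap for 3 of the 78 probes, all higher in pregnant females, against 1.51% of all probes higher and 1.43% lower.

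For part of the genes the size of the difference can be bounded from its interval. Taking for each gene the probe of highest mean signal, the 95% interval of the difference lay within 0.32 of zero on the log2 scale for 31 of the 54 genes, 20 of 32 in the large subunit and 11 of 22 in the small. For the other genes the interval reached beyond that bound. Counted by probe, it lay within the bound for 34 of the 78 ribosomal protein probes. Of the 37 with a mean log2 intensity under 13, this held for 4 (10.8%), and among all tested probes for 22.1%. Bright probes vary less: of 414 other tested probes with a mean log2 intensity of at least 13, the interval lay within that bound for 62.3%, against 77.8% of the 36 ribosomal protein genes above that limit. The sets were not matched in level, with a median of 14.33 for the 36 genes and 13.56 for the 414 probes. None of those 36 brightest probes was called, though 1 of the 36 genes, Rpl31, was called by a dimmer probe, and the log2 changes of the 36 probes ran from -0.13 to 0.17. Bead array signal rises less steeply with RNA amount near the top of its range, so a change of a very bright probe may be understated, and this was not tested here.

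**Figure D1:**
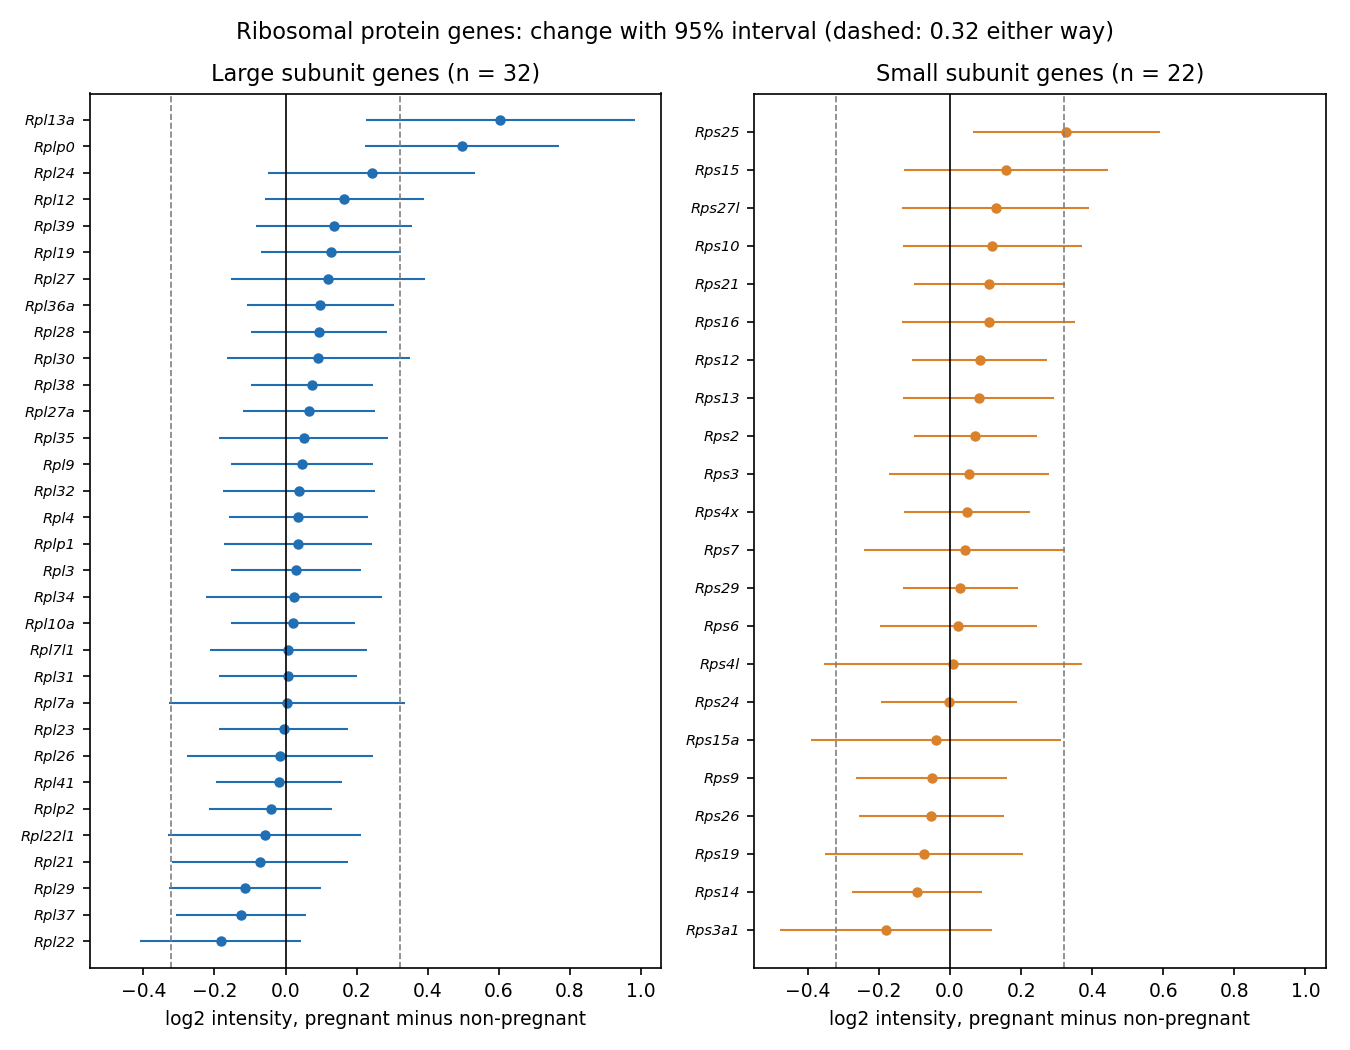
Log2 difference (x axis, pregnant minus non-pregnant) of each tested ribosomal protein gene by its probe of highest mean signal, with the 95% interval as a line, for 32 large subunit genes (left) and 22 small subunit genes (right). Of the 54 intervals 31 lie between the dashed lines at 0.32 either way, and Rpl13a, Rplp0 and Rps25 stand highest at 0.60, 0.50 and 0.33.

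As groups, both subunits were slightly on the higher side in pregnancy. The median log2 change was 0.04 for the large subunit genes, with 23 of 32 positive, and 0.04 for the small subunit genes, with 15 of 22 positive. Over all tested probes the median was 0.00, with 9323 of 18626 positive. Large subunit genes ranged from -0.18 in Rpl22 to 0.60 in Rpl13a, and small subunit genes from -0.18 in Rps3a1 to 0.33 in Rps25.

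The spread of this shift over arrays was larger than the shift itself. For each array the mean deviation of the genes from the midpoint of both group means was taken. For the large subunit it averaged 0.03 ± 0.04 (SD) over the 8 pregnant arrays, against -0.03 ± 0.14 over the 4 non-pregnant arrays, and for the small subunit 0.02 ± 0.06 against -0.02 ± 0.17. The pregnant arrays ran from -0.04 to 0.10 for the large and from -0.08 to 0.14 for the small subunit, all within the non-pregnant range. The non-pregnant arrays were at 0.10, -0.21, -0.08 and 0.06 for the large and at 0.08, -0.24, -0.07 and 0.15 for the small subunit, in the order of replicates 1 to 4. Non-pregnant replicate 2 gave the lowest value of all 12 arrays for 26 of the 54 genes, and Pregnant replicate 3 and Non-pregnant replicate 1 each gave the highest for 10. On each non-pregnant array both subunits deviated in the same direction, while on Pregnant replicates 1 and 6 the signs differed. The large minus small difference stayed between -0.08 and 0.08 on pregnant arrays and between -0.09 and 0.04 on non-pregnant arrays.

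**Figure D2:**
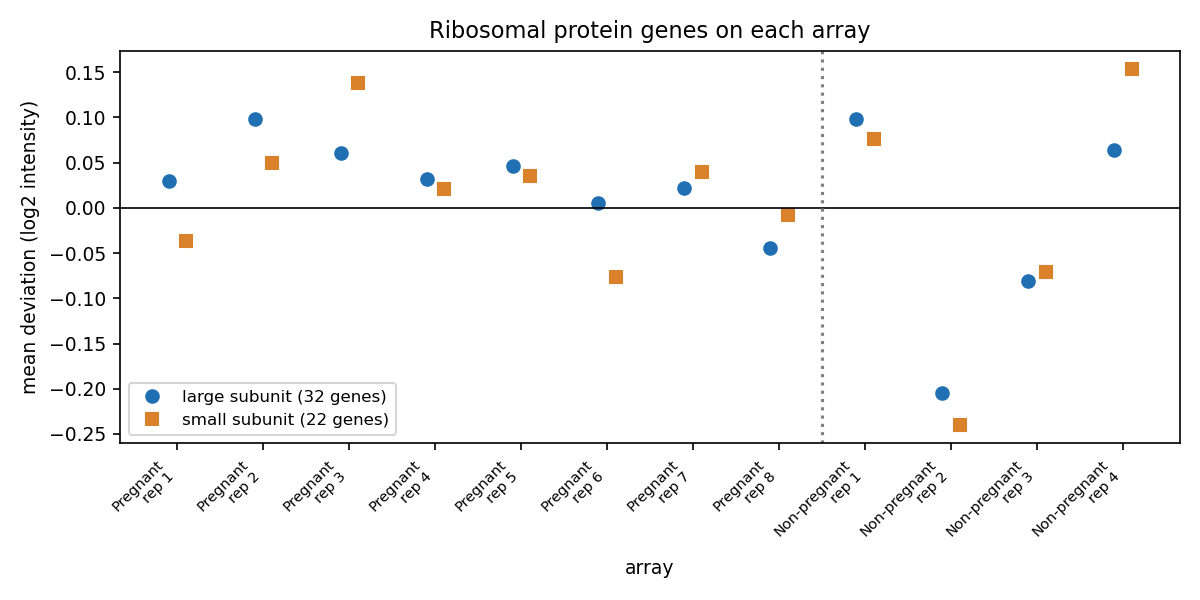
Mean deviation of the large subunit genes (circles) and small subunit genes (squares) on each array, in log2 intensity (y axis), pregnant arrays left of the dotted line and non-pregnant arrays right of it. The groups overlap, and Non-pregnant replicate 2 lies lowest at -0.21 and -0.24.

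Leaving out Non-pregnant replicate 2 turned both medians, to -0.0088 for the large and -0.0016 for the small subunit. Leaving out Non-pregnant replicate 4 gave 0.06 and 0.11, with 3 ribosomal protein genes called higher, while the count over all probes was 536 in place of 227. How the arrays were scaled also mattered. With median scaling in place of quantile normalisation the medians were 0.13 and 0.12 while that of all probes was 0.02, and without normalisation they were 0.26 and 0.25 while all probes shifted by 0.16, so that relative to all probes the genes stood 0.10 and 0.09 higher under both. Fitting the quantiles without the ribosomal protein probes left the medians at 0.04 and 0.04. No alternative other than the omission of Non-pregnant replicate 2 gave a negative median for either subunit.

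**Figure D3:**
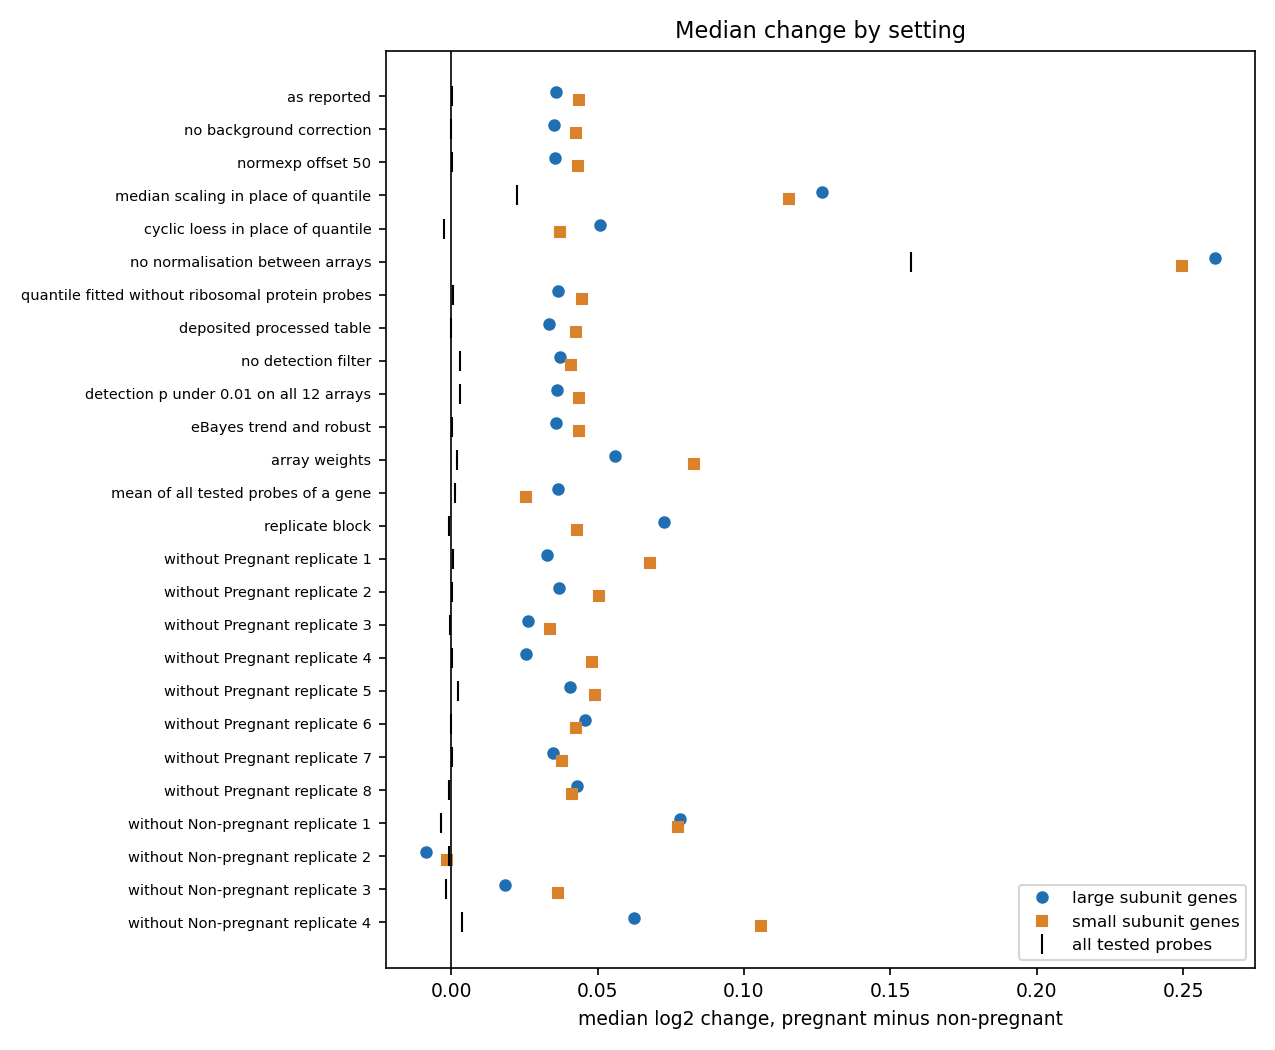
Median log2 change (x axis, pregnant minus non-pregnant) of large subunit genes (circles), small subunit genes (squares) and all tested probes (ticks) as reported and under each alternative setting or omitted array (y axis). The medians reach 0.26 and 0.25 without normalisation, where all probes shift by 0.16, and fall to 0 or just below it without Non-pregnant replicate 2.

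The large subunit held the only call. RPL31 lies beside the opening of the tunnel through which the new protein leaves the ribosome. Its called probe (ILMN_3073486) measured 11.10 at the lowest, 11.31 at the median and 11.63 at the highest in pregnant females, and 10.67, 10.89, 10.82 and 10.99 log2 intensity in the 4 non-pregnant females. The groups did not overlap, with a log2 change of 0.46 ± 0.11 (SE), or 1.37-fold (adjusted p = 0.0352, limma). Omitting an array ended the call for 7 of the 12 arrays, with the highest adjusted p, 0.133, without Non-pregnant replicate 1. Without Non-pregnant replicate 4 the call held (adjusted p = 0.0220).

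The other 2 probes of Rpl31 did not pass. ILMN_1221124 measured 11.68, 11.88 and 12.04 (lowest, median and highest) in pregnant females and 11.64, 11.57, 11.48 and 11.58 in non-pregnant females, again without overlap, and its log2 change was 0.30 ± 0.09 (adjusted p = 0.105). The brightest, ILMN_3152328, measured 14.13, 14.23 and 14.45 in pregnant females and 14.35, 14.06, 14.17 and 14.34 in non-pregnant females. There the groups overlapped, with 1 non-pregnant female below and 1 pregnant female above the range of the other group, and with a log2 change of 0.01 ± 0.09 (95% interval 0.878 to 1.15-fold, adjusted p = 0.979). The annotation gives all 3 probes the same gene, and whether they read the same transcript was not tested. With the probes averaged, Rpl31 had a log2 change of 0.26 and did not pass (adjusted p = 0.101).

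The stalk of the large subunit, built on RPLP0 with the acidic proteins RPLP1 and RPLP2, calls in the translation factors that drive each step. The brighter Rplp0 probe measured 9.72, 9.97 and 10.34 (lowest, median and highest) in pregnant females and 9.56, 9.19, 9.34 and 9.70 in non-pregnant females. The groups were just apart, with a log2 change of 0.50 ± 0.13 (1.41-fold) that missed the threshold (adjusted p = 0.0553, limma). It passed under 8 of 13 alternatives and in 2 of 12 omissions of 1 array, those of Pregnant replicate 1 and Non-pregnant replicate 4 (adjusted p = 0.0424 and 0.0236). The dimmer Rplp0 probe was detected on 4 of 8 pregnant and 3 of 4 non-pregnant arrays and had a log2 change of 0.02 ± 0.16. Its partners were level, with log2 changes of 0.04 ± 0.10 for Rplp1 and -0.04 ± 0.08 for Rplp2 (adjusted p = 0.891 and 0.841).

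Rpl13a, often used as a reference gene in quantitative PCR, had the highest log2 change of all members. It measured 11.22, 11.56 and 11.72 (lowest, median and highest) in pregnant females and 11.33, 10.27, 10.70 and 11.39 in non-pregnant females. Non-pregnant replicates 1 and 4 lay within the pregnant range and replicates 2 and 3 below it. The log2 change of 0.60 ± 0.18 (1.52-fold) did not pass (adjusted p = 0.0863). It was 0.39 without Non-pregnant replicate 2 (adjusted p = 0.235) and 0.76, past the threshold, without replicate 4 (adjusted p = 0.0253). Rpl32, another common reference gene, had a log2 change of 0.04 ± 0.10 (adjusted p = 0.889).

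**Figure D4:**
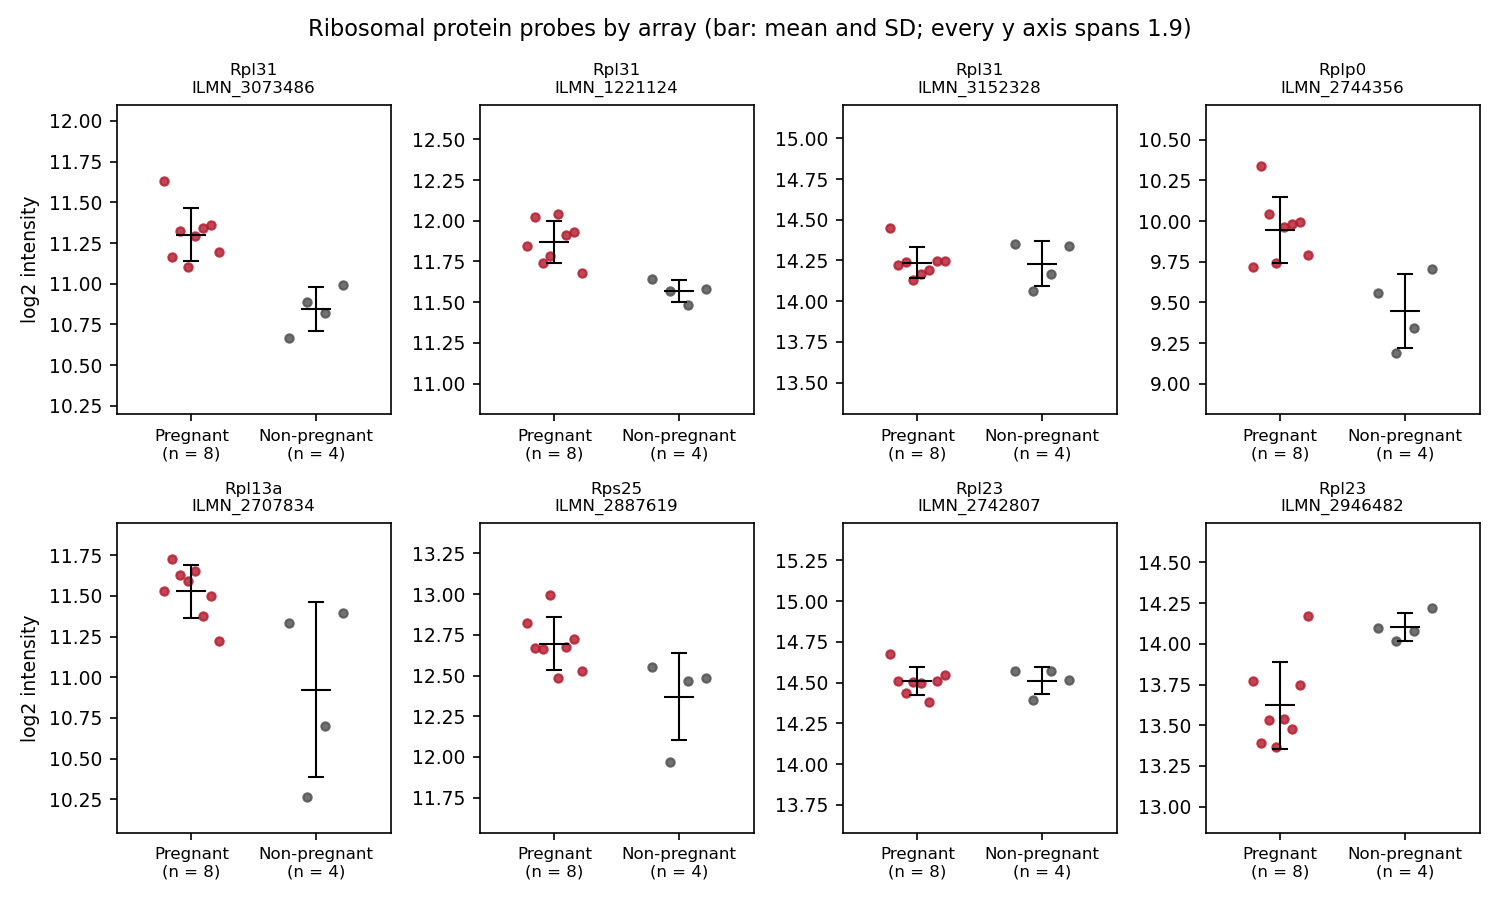
Log2 intensity (y axis) of 8 ribosomal protein probes on each array, with 8 pregnant females left and 4 non-pregnant females right in each panel, mean and SD as bars. The groups are apart for 2 of the 3 Rpl31 probes and for Rplp0, while they overlap for the brightest Rpl31 probe and the brightest Rpl23 probe.

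Of the other large subunit genes, Rpl24 and Rpl12 followed in size, at 0.24 ± 0.14 and 0.17 ± 0.10 (adjusted p = 0.391 and 0.453). RPL24 helps the subunits join, and RPL12 sits at the base of the stalk. On the lower side were Rpl22, Rpl37, Rpl29 and Rpl21, at -0.18 ± 0.11, -0.13 ± 0.09, -0.11 ± 0.10 and -0.07 ± 0.12 (adjusted p from 0.411 to 0.810). Rpl22 measured 12.33, 12.51 and 12.81 (lowest, median and highest) in pregnant females and 12.80, 12.49, 12.84 and 12.62 in non-pregnant females, which overlapped. None of these 6 genes passed the test.

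RPL23 binds MDM2, the protein that keeps p53 low, besides its place in the ribosome, and its 4 probes gave different answers. The brightest (ILMN_2742807) measured 14.38, 14.51 and 14.68 in pregnant females and 14.57, 14.39, 14.57 and 14.52 in non-pregnant females, for a log2 change of -0.01 ± 0.08 (adjusted p = 0.983). The next, ILMN_2946482, measured 13.36, 13.54 and 14.17 in pregnant females and 14.09, 14.02, 14.08 and 14.22 in non-pregnant females. On that probe 7 of 8 pregnant females lay below every non-pregnant one, and Pregnant replicate 8, at 14.17, lay among them. The log2 change of -0.48 ± 0.14 did not pass (adjusted p = 0.0761). It passed under 3 of 13 alternatives, without background correction, with the deposited processed table and with a trended robust variance (adjusted p = 0.0388, 0.0392 and 0.0298), and in 1 of 12 omissions of 1 array, that of Pregnant replicate 8 (adjusted p = 0.0153). The probe ILMN_1238227 had -0.02 ± 0.15, with adjusted p = 0.964. The dimmest, ILMN_2685675, measured 5.42, 5.60 and 6.30 in pregnant females and 6.97, 6.05, 6.28 and 6.10 in non-pregnant females. It was detected on 2 of 8 pregnant and 4 of 4 non-pregnant arrays and so entered the test through the group in which it was higher, and most of its pregnant values are at background, so its difference is given as a description only.

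The 4 probes of Rpl27a differed as widely, by 0.64 on the log2 scale between the lowest and the highest. Their log2 changes were 0.07 ± 0.09, -0.16 ± 0.14, 0.16 ± 0.09 and 0.48 ± 0.15, given with the brightest first and the dimmest last. None of them passed (adjusted p = 0.756, 0.610, 0.377 and 0.0945). In Rpl28 the dimmer of a pair of probes had the higher change, at 0.43 ± 0.13 against 0.09 ± 0.09 (adjusted p = 0.106 and 0.650). In Rpl30 it had 0.35 ± 0.12 against 0.09 ± 0.12 (adjusted p = 0.127 and 0.751). The dimmer probe also had the higher change in Rpl29, Rps9, Rpl38 and Rpl7l1, but the lower in Rplp0, Rps13, Rps3, Rps2, Rps12 and Rpl4. In all, 17 genes had several tested probes, and in 8 of them the probes had opposite signs.

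**Figure D5:**
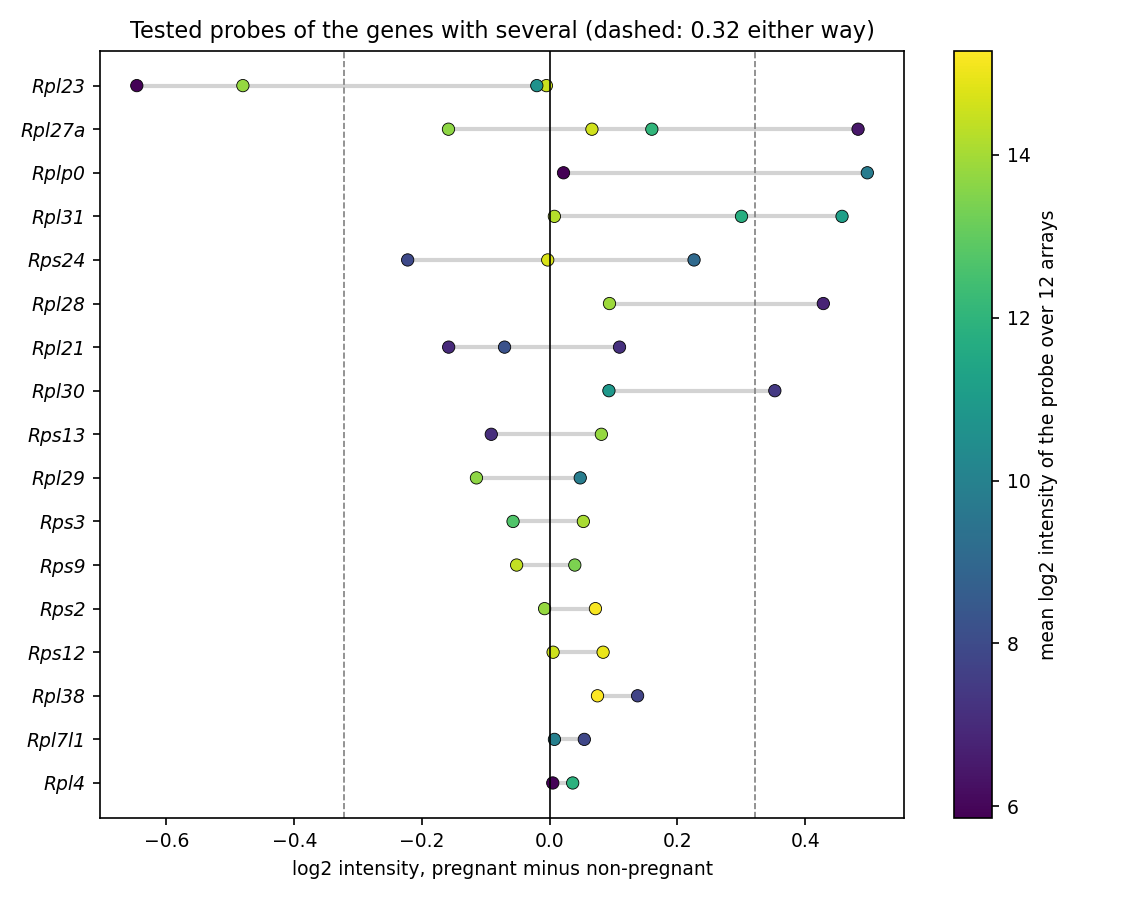
Log2 change (x axis, pregnant minus non-pregnant) of each tested probe of the 17 genes with several (y axis), coloured by the probe's mean log2 intensity. The probes of Rpl23 and of Rpl27a spread over 0.64, in Rpl23 through a dim probe detected on 2 of 8 pregnant arrays, while those of Rps12, Rpl38, Rpl7l1 and Rpl4 lie within 0.08.

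In the small subunit no gene was called. RPS25, which some viral and cellular messenger RNAs need for initiation at internal sites, had the highest change. Rps25 measured 12.49, 12.67 and 12.998 (lowest, median and highest) in pregnant females and 12.55, 11.97, 12.47 and 12.49 in non-pregnant females. The groups overlapped through Non-pregnant replicate 1, and replicate 2 lay far below the others. The log2 change of 0.33 ± 0.12 did not pass (adjusted p = 0.186) and was 0.19 without Non-pregnant replicate 2 (adjusted p = 0.461). Rps15, Rps27l and Rps10 followed at 0.16 ± 0.13, 0.13 ± 0.12 and 0.12 ± 0.12 (adjusted p from 0.601 to 0.661).

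On the lower side of the small subunit were Rps3a1, Rps14, Rps19 and Rps26, at -0.18 ± 0.14, -0.09 ± 0.09, -0.07 ± 0.13 and -0.05 ± 0.10 (adjusted p from 0.555 to 0.830). RPS19 and RPS14 are both known from inherited or acquired anaemias of humans in which too little of either protein is made. RPS6, the substrate of S6 kinase downstream of mTORC1, measured 13.38, 13.45 and 13.64 (lowest, median and highest) in pregnant females and 13.56, 13.12, 13.53 and 13.62 in non-pregnant females. These ranges overlapped, and the log2 change was 0.02 ± 0.10 (95% interval 0.872 to 1.18-fold). RPS3, which also takes part in DNA repair, had 0.05 ± 0.11 (adjusted p = 0.847).

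Some members are close relatives of a standard ribosomal protein and can stand in its place in certain tissues. Rpl22l1 and its parent Rpl22 had log2 changes of -0.06 ± 0.13 and -0.18 ± 0.11 (adjusted p = 0.860 and 0.411). Rps4l and Rps4x had 0.01 ± 0.17 and 0.05 ± 0.08 (adjusted p = 0.987 and 0.828), and Rpl7l1 had 0.01 ± 0.10 (adjusted p = 0.981). Rpl3l, known from heart and skeletal muscle, and Rpl39l, known from the testis, were detected on none of the 12 arrays, while their parents Rpl3 and Rpl39 were detected on all and had log2 changes of 0.03 ± 0.09 and 0.14 ± 0.10 (adjusted p = 0.897 and 0.540).

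For 8 genes no probe passed the detection filter. Besides Rpl3l and Rpl39l these were Rpl6, Rpl14, Rpl17, Rps20, Rps23 and Rpsa, which are standard parts of the ribosome. Rpl14 was detected on 2 of 8 pregnant and 1 of 4 non-pregnant arrays, and the other 7 on none. A further 5 probes of Rpl37, Rplp2, Rps19 and Rps24 failed in the same way although another probe of the same gene was bright, with Rplp2 at 14.46 in pregnant and 14.50 in non-pregnant females on the probe that passed. A probe at background therefore gave no level for its gene. Of the 78 tested probes, 75 were detected on all 12 arrays. Not every ribosomal protein gene was among those counted here. For Rpl5, Rpl10, Rpl11 and Rps18 no probe carried the symbol alone, so they were not tested.

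Related gene lists were counted beside the ribosomal protein genes, against the 1.22% of all tested probes called higher and 1.10% called lower. Mitochondrial ribosomal protein genes, which build the separate ribosome of the mitochondrion, had 72 of 76 tested, 1 called higher and none lower. That gene was Mrpl47, with a mean of 9.20 and an SD of 0.15 in pregnant females, against 8.80 and 0.10 in non-pregnant females (log2 change 0.41 ± 0.10 SE, adjusted p = 0.0483). Of the 72, 59 had a positive log2 change and the median was 0.09, against 38 of 54 and 0.04 for the cytosolic genes. Whether the sets differ was not tested. Of 47 tested ribosome biogenesis and RNA polymerase I genes none was called, 29 were positive and the median was 0.04. Pes1, a factor of large subunit assembly, came nearest at 0.40 ± 0.10 (adjusted p = 0.0591).

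The messenger RNAs of several translation factors carry the same pyrimidine tract as those of the ribosomal proteins. The list counted here also holds Hnrnpa1, Nap1l1, Tpt1, Naca and Btf3, which are not initiation or elongation factors. Of its 14 tested genes, 3 had a positive log2 change by the probe of highest mean and the median was -0.05. The highest was Nap1l1, at 0.21 ± 0.11. Eef1d, a subunit of the elongation factor exchange complex, was called higher by a dimmer probe (0.60 ± 0.14, adjusted p = 0.0388), while its brightest probe had -0.01 ± 0.09. Eif3f, of the initiation factor eIF3, had -0.30 ± 0.08 (adjusted p = 0.0681).

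Of 16 tested regulators of ribosomal protein synthesis, 1 was called. By the probe of highest mean, 6 of the 16 had a positive log2 change and the median was -0.10. Eif4ebp1 encodes 4E-BP1, which holds back cap-dependent translation unless mTORC1 phosphorylates it. Eif4ebp1 had a mean of 8.88 with an SD of 0.45 in pregnant females, against 7.84 with an SD of 0.16 in non-pregnant females, and was 2.06-fold higher in pregnancy (log2 change 1.04 ± 0.20 SE, adjusted p = 0.0148). Ddit4, Mxi1 and Eif4ebp2 came next by p-value (limma), all on the lower side, at -0.42 ± 0.15, -0.29 ± 0.15 and -0.18 ± 0.10. They did not pass (adjusted p = 0.165, 0.338 and 0.375). Mtor, Larp1 and Rptor had log2 changes of -0.01 ± 0.12, 0.02 ± 0.17 and -0.15 ± 0.09, and none of these passed (adjusted p = 0.981, 0.973 and 0.404). The levels of phosphorylated 4E-BP1 and RPS6 were not measured on these arrays.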

How the data were processed

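Pituitary RNA of 8 Pregnant and 4 Non-pregnant females was measured on 1 bead array per animal. The authors deposited raw signal intensity on a linear scale, not background-subtracted, with a detection p-value per probe that the authors' scanner software gave against negative control beads. They also deposited a quantile-normalised intensity table made with lumi (version unstated in these sources), used as an alternative. With limma 3.58.1 (R 4.3.3), background was corrected by normexp from the detection p-values (offset 16), followed by quantile normalisation and log2. Probes detected (p under 0.05) on at least 4 of 12 arrays were kept. Groups were compared with lmFit and eBayes, as a two-sided test adjusted by Benjamini-Hochberg over the 18626 probes, and a call needed an adjusted p under 0.05 with a change of 1.25-fold or more. The procedure was tested on simulated data. The brightest tested probe by mean stands for each gene, which is called when any probe is. By the platform annotation 34885 probes had 1 symbol, 18 had several and 10378 had none. Slides are not stated in these sources. Named genes are called members, the 4 highest and 4 lowest changes of each subunit, stalk genes, paralogues with their parents, Rps6, Rpsa, Rps3, common reference genes and genes whose probes differ by over 0.5. Rpl28 and Rpl30 are given with values beside them, a choice made after seeing those values. Further genes with several probes are named without values. Members and lists were chosen with earlier results of these data known. Animals were treated as independent, so p-values measure the spread between these animals. Precision is limited by the number of arrays. Alternatives changed background, normalisation, filter, probe rule, variance model, array weights, block and single arrays.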

Additional observations from a re-analysis of the deposited data

Results flagged for a closer look

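Single arrays stood apart from the rest of their group in 8 of 80 groups of values examined, where chance gives about 1 in 20, and no cause was tested. In pregnant females, replicate 1 was highest for the brightest Rpl31 probe at 14.45 (next 14.25) and lowest for Rps3 at 13.87 (next 14.03). Replicate 6 was lowest for Rps15 at 11.99 (next 12.31) and for Rplp1 at 14.54 (next 14.77). Replicate 4 was lowest for the dimmest Rpl27a probe at 6.00 (next 6.53). In non-pregnant females, replicate 2 was lowest for Rps25 at 11.97 (next 12.47), replicate 3 for Rps26 at 13.99 (next 14.14) and replicate 1 for the dimmest Rpl27a probe at 5.90 (next 6.20). All values are log2 intensities.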

How the results depend on the processing

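With 4 non-pregnant arrays, single animals moved the counts of calls, and a change of a few percent in a bright probe could not be told from the spread between arrays. Counts of ribosomal protein genes called higher and lower, at 1 and 0 as reported and the same at any fold, were 2 and 1 without background correction, with the deposited processed table and with a trended robust variance. They were 2 and 0 with an offset of 50, with median scaling and with a detection p under 0.01 on all 12 arrays, 8 and 0 without normalisation, 5 and 1 with array weights, and 0 and 0 with the probes of a gene averaged. Leaving out 1 array gave 0 to 3 called higher and 0 to 1 lower. Over all probes, 227 were called higher and 204 lower as reported, 1000 and 97 without normalisation, 742 and 834 with array weights, and 332 and 308 with the trended robust variance. They were 268 and 252 without background correction, 271 and 253 with the deposited processed table, and 288 and 294 with an offset of 50. Median scaling gave 255 and 193, the stricter detection filter 240 and 203, and averaging the probes of a gene 183 and 189. Leaving out 1 array gave 89 (Non-pregnant replicate 3) to 536 (Non-pregnant replicate 4) higher and 60 to 597 lower, by the same arrays. It gave 113 and 70 without Non-pregnant replicate 1 and 124 lower without Pregnant replicate 7. Median log2 changes of the large and small subunit were 0.13 and 0.12 with median scaling and 0.26 and 0.25 without normalisation, where all probes shifted by 0.16.

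The replicate numbers 1 to 4 are shared by both groups, but same-numbered arrays deviated together only in part (correlations 0.16, 0.06, 0.01 and 0.20), and 1 of the 4 numbers matched best with its own. With the replicate block, 0 ribosomal protein genes were called higher and 1 lower, against 86 and 41 of all probes. In that fit the called Rpl31 probe had an adjusted p of 0.272. The 1 probe called lower there, and also with array weights, was the dim Rpl23 probe, which passed the detection filter through the non-pregnant arrays (2 of 8 pregnant and 4 of 4 non-pregnant detected). The log2 changes of Rps19, Rps26, Rpl7l1, Rps4l and Rpl23 turned sign there, to 0.018, 0.025, -0.032, -0.15 and 0.020.

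Of the comparisons of named probes with an alternative, 835 kept their direction and side of the threshold, 30 passed it newly, 9 no longer passed and 48 turned sign. None of the values that turned sign passed the test in either setting, and the cause was not tested. With median scaling Rps14, Rps19, Rps26, Rplp2 and Rpl23 were at 0.023, 0.026, 0.054, 0.11 and 0.12. With cyclic loess Rplp2 and Rpl23 were at 0.025 and 0.037. Without normalisation Rpl22, Rpl37, Rpl29, Rpl21, Rps3a1, Rps14, Rps19, Rps26, Rplp2, Rpl22l1 and Rpl23 were at 0.025, 0.062, 0.12, 0.064, 0.0098, 0.16, 0.16, 0.19, 0.25, 0.072 and 0.26. Rpl23 was at 0.0022 with quantiles fitted without the ribosomal protein probes, and Rps3 at -0.0024 with its probes averaged. Leaving out 1 array gave -0.048 to 0.048 for the brightest Rpl31 probe, -0.11 to 0.12 for Rps4l, -0.045 to 0.014 for Rpl23, -0.023 to 0.048 for Rpl7l1, -0.18 to 0.035 for Rpl22l1, -0.0051 to 0.083 for Rps4x, -0.090 to 0.077 for Rps6, -0.044 to 0.14 for Rps3, -0.036 to 0.10 for Rpl32, -0.030 to 0.078 for Rplp1 and -0.16 to 0.016 for Rps19.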
